A study of Mus musculus with 8 samples.

Results

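Cardiac impulses spread from cell to cell through gap junctions, and 9 genes of that machinery were followed here in embryonic mouse ventricles with and without Rps19bp1 in cardiomyocytes. They are the connexin genes Gja1, Gja5 and Gjc1, the potassium channel genes Kcnj2, Kcnj3, Kcnq1 and Kcnh2, the conduction system marker Cntn2 and the transcription factor gene Irx3. They were chosen by symbol, as rows on the primary chromosomes, from the 52778 rows of the deposited table, and each of the 9 symbols stood on 1 row. Of the 9, 8 had a mean of at least 1 TPM (transcripts per 1000000, a length-corrected share of each library) over all libraries and entered the test. Cntn2 did not.

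Ventricles were taken at embryonic day 11.5. The 4 conditional knockout libraries (cKO) came from embryos with floxed Rps19bp1 alleles and a heterozygous Xmlc2-Cre, which the series text calls cardiomyocyte-specific, so other cell types of the ventricle keep the gene. The 4 control libraries are labelled only as control, and whether those embryos carried floxed alleles or Cre is not given in the sources used here. The labels also name a C57BL/6 wild-type genotype for all 8 libraries and, in the extraction text, cultured neurons. Replicates are described as biological, without saying whether embryos were pooled.

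Connexins assemble into channels that join neighbouring cells. Gja1 encodes Cx43, the main connexin of working ventricular muscle. Gja5 encodes Cx40, a high-conductance connexin of atrial muscle, embryonic trabeculae, the His-Purkinje network and arterial endothelium. Gjc1 encodes Cx45, the earliest and slowest-conducting of these 3 connexins in the heart. Repolarisation and the resting potential depend on potassium channels, while Irx3 is known in mice as a factor for rapid conduction in the ventricular network, where it favours Gja5 and restrains Gja1.

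The libraries were checked first. Rps19bp1 stood at 14.96 ± 3.14 TPM in cKO and 39.9 ± 3.93 TPM in control (SD, n = 4), or 37.5% of the control level, and the groups did not overlap. Defining cardiac genes were abundant, with the summed TPM of 11 working cardiomyocyte markers between 33876 and 38285 in the 8 libraries. The 11 neural crest, neuronal and glial markers summed to between 13.03 and 22.8 TPM. Limma called 994 of the 15541 tested rows at an adjusted p under 0.05 (6.4%), of which 658 were lower and 336 higher in cKO. Of these calls 33.8% were higher, against 50.2% after quantile normalization, 47.8% after median-ratio scaling, 49.5% after rescaling without mitochondrial and globin rows and 69.5% after scaling to the cardiomyocyte markers. No read depth can be read from TPM, so the error given is the spread between libraries.

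Promoter sequences are shown for the connexin gene that changed most, for the connexin gene that did not pass the test, and for Irx3 and Kcnh2, so that the genes that were lower can be set beside the one that stayed near its control level. Each runs from 250 bases before to 50 bases after a RefSeq transcript start (GRCm38.p6), 5′ to 3′ on the gene's own strand. Capitals mark matches, on either strand, to 4 short motifs that were searched: the T-box core AGGTGT, the NK2 core AAGTG, the GATA core AGATAA and TATAAA. The 4 sequences follow.
Gja5 (chr3:97032152-97032451, plus strand): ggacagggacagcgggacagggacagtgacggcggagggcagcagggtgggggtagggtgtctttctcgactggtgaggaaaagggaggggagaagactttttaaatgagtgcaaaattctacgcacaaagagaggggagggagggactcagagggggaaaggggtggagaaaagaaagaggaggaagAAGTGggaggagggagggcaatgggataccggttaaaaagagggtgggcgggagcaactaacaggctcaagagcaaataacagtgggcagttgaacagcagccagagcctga
Gja1 (chr10:56377050-56377349, plus strand): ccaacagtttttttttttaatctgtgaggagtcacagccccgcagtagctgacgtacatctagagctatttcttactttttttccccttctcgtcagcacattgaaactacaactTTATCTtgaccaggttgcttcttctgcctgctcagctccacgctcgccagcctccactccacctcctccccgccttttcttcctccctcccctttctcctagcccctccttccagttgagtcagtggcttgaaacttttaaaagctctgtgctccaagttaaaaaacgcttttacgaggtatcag
Irx3 (chr8:91801605-91801904, minus strand): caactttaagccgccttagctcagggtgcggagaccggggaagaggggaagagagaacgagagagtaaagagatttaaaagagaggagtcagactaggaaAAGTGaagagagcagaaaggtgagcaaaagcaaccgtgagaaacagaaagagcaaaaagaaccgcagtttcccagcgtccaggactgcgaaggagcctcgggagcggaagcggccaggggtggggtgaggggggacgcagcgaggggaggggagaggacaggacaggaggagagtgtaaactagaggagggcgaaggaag
Kcnh2 (chr5:24329542-24329841, minus strand): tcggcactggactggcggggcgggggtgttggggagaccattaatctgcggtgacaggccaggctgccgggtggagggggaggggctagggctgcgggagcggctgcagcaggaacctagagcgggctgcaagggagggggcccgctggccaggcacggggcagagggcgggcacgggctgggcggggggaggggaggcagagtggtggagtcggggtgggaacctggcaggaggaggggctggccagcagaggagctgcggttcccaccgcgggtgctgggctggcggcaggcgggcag

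In these windows Gja5 and Irx3 each held 1 NK2 core, Gja1 held 1 GATA core on the opposite strand, and Kcnh2 held no match to the 4 motifs. A match to the NK2 core was found in 46.4% of 32851 promoters of that length, to the GATA core in 11.2%, to the T-box core in 13.7% and to TATAAA in 13.6%. GC content was 55.7% for Gja5, 47.7% for Gja1, 56.0% for Irx3 and 74.3% for Kcnh2. The Kcnh2 window belongs to a transcript start inside the row's span, not at its outer end. Promoters of 7 of the 9 genes were matched by symbol.

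Among the 8 tested genes, cKO ventricles differed most in Gja5, which stood at 61.6% of its control level, while Gja1 was at 97.5%. Kcnh2 and Gjc1 were lower too, at 75.7% and 83.2%. Limma called these 3 of the 8 tested genes, all lower in cKO, where 4.23% of all tested rows were called lower and 2.16% higher. In such bulk tissue, fewer cells of a type and less RNA per cell cannot be told apart. The groups did not overlap in 5 of the 8 tested genes, all lower in cKO (Gja5, Gjc1, Kcnh2, Kcnq1 and Irx3). Of all tested rows, 10.3% were separated in that direction and 15.6% in either. The 9 genes were chosen with earlier results of these data known. The median log2 change of the 8 tested genes was -0.25, beside -0.02 over all tested rows. Changes are given as cKO minus control after adding 1 TPM and taking log2, so that changes of scarce transcripts come out smaller than their TPM ratio.

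The levels spanned a wide range and kept their order across libraries. Gja1 was the most abundant at 293.9 to 346.7 TPM, followed by Gja5, Kcnh2, Gjc1, Irx3 and Kcnq1, and each of these stood above the next in all 8 libraries. Kcnj3 and Kcnj2 could not be ordered, since Kcnj3 was the higher in 4 of 8 libraries. Cntn2 came last, at no more than 0.352 TPM in any library.

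**Figure D1:**
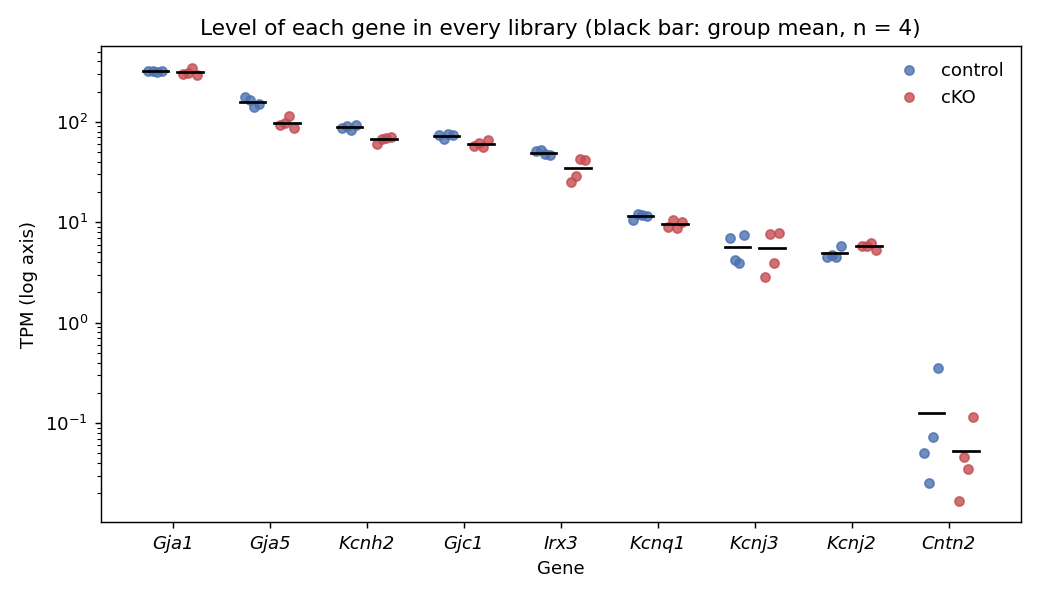
TPM of each of the 9 genes on a log axis, with 1 point per library (blue control, red cKO) and a black bar at each group mean (n = 4). The 4 red Gja5 points lie between 87.2 and 113 TPM, all below the blue points at 141 to 176 TPM. For Gja1 the red points lie on both sides of the blue ones.

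Gja5 (chr3:97032402-97053634, plus strand, GRCm38) was measured at 176, 164, 141 and 151 TPM in control libraries 1 to 4 and at 93.3, 96.3, 113 and 87.2 TPM in cKO libraries 1 to 4. Every cKO library was below every control library, and the highest cKO value, in library 3, was still 28.1 TPM short of the lowest control value. The group means were 158 ± 15.4 TPM in control and 97.5 ± 11.1 TPM in cKO (SD, n = 4). The fitted log2 change was -0.69 (SE 0.0887, 95% interval -0.89 to -0.50, limma adjusted p = 0.00308), the 23rd largest among the 658 rows called lower. A predicted transcript on the opposite strand, 4930573H18Rik, overlaps the gene and stood at no more than 0.880 TPM.

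Gja1 (chr10:56377300-56390419, plus strand) was at 324, 322, 314 and 320.3 TPM in control libraries 1 to 4 and at 300.2, 308, 347 and 294 TPM in cKO libraries 1 to 4. Control libraries were closely grouped, whereas the cKO libraries fell on both sides of them, with library 3 the highest of all 8. cKO libraries 1, 2 and 4 lay below every control library. The log2 change was -0.04, with a 95% interval of -0.16 to 0.08 (limma adjusted p = 0.720). Its sign turned to 0.03 after quantile normalization, and to 0.02 after scaling to the cardiomyocyte markers. Without cKO library 3 the Gja1 change was -0.09 (limma adjusted p = 0.251).

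Gjc1 (chr11:102799477-102819686, minus strand) stood at 73.4, 67.4, 76.1 and 73.7 TPM in control libraries 1 to 4 and at 57.96, 61.8, 56.5 and 65.7 TPM in cKO libraries 1 to 4. The groups did not overlap, though the lowest control library and the highest cKO library were 1.74 TPM apart. The log2 change was -0.26 (SE 0.0596, limma adjusted p = 0.0329). This call was lost under 12 of 19 alternatives, among them the omission of control library 1 (-0.26), 3 (-0.24) or 4 (-0.25) and of cKO library 1 (-0.24), 2 (-0.27) or 3 (-0.23), with limma adjusted p between 0.0541 and 0.0915 in those 6.

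Because the connexins changed unequally, their proportions were compared within each library, where scaling cancels. Gja1 supplied 58.1% ± 1.19 of the summed TPM of the 3 connexin genes in control and 66.4% ± 0.601 in cKO (SD, n = 4). For Gja5 the share was 28.7% ± 1.89 in control and 20.7% ± 0.977 in cKO. Both shares were separated in all libraries (exact permutation p = 0.0286, two-sided, the smallest that 70 assignments allow, and 0.0429 after Benjamini-Hochberg adjustment over the 3 shares). The Gjc1 share was 13.2% ± 0.925 in control and 12.9% ± 1.56 in cKO, and its groups overlapped (exact permutation p = 0.800). The 3 shares are parts of the same sum, so the higher Gja1 share and the lower Gja5 share are not separate results. Gja1 TPM itself did not pass the test.

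Put as a ratio, control ventricles held 2.04 ± 0.172 Gja1 transcripts for each Gja5 transcript, and cKO ventricles held 3.21 ± 0.125 (SD, n = 4). The ratio ranged from 1.84 to 2.22 in control libraries and from 3.07 to 3.37 in cKO libraries. The summed level of the 3 genes was 551 ± 17.8 TPM in control and 470.1 ± 31.8 TPM in cKO, also without overlap. cKO library 3 had the largest sum of its group, at 516 TPM.

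**Figure D2:**
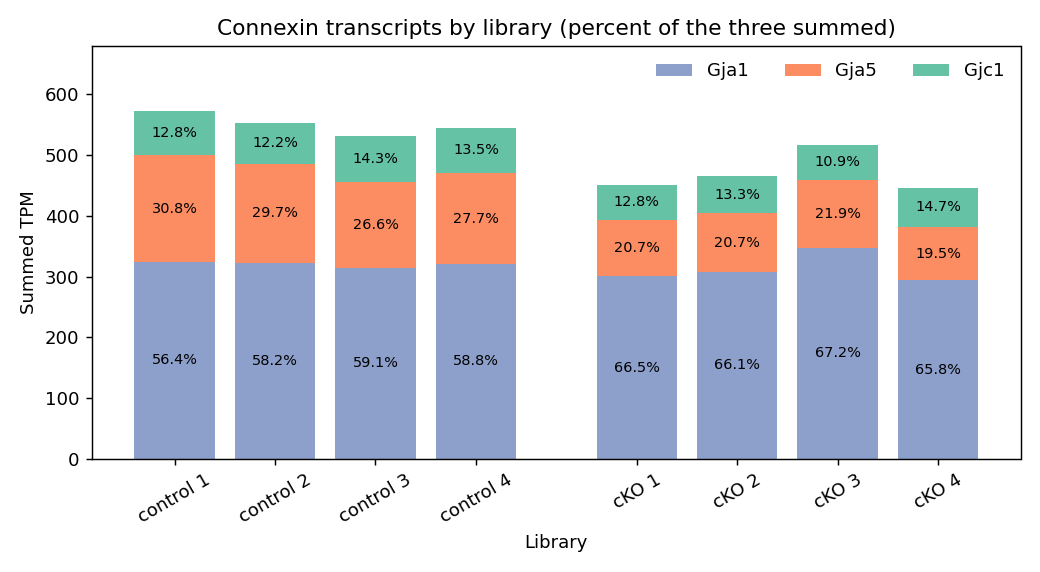
Stacked bars of Gja1, Gja5 and Gjc1 TPM in each of the 8 libraries, with each gene's percent of the 3 summed printed inside. The Gja5 segment takes 26.6% to 30.8% in the control libraries and 19.5% to 21.9% in the cKO libraries, while the Gjc1 segment overlaps between groups.

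Of 20 further connexin and pannexin genes, 4 passed the filter, and 2 of those were called, 1 in each direction, beside 6.4% of all tested rows. Gja4, which encodes Cx37 of arterial endothelium, rose by 0.25 on the log2 scale (limma adjusted p = 0.0451), with 43.3 ± 2.43 TPM in control and 51.7 ± 3.76 TPM in cKO (SD, n = 4). Panx2, a pannexin channel gene, fell by 0.57 on the log2 scale (limma adjusted p = 0.0266), with 6.07 ± 0.731 TPM in control and 3.78 ± 0.716 TPM in cKO (SD, n = 4). Both calls were lost under some alternatives, 10 of 19 for Gja4 and 8 of 18 for Panx2. The remaining connexin genes were scarce, and 8 of the 20 stayed under 0.1 TPM in every library.

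Connexin plaques sit in the intercalated disc beside adherens junctions and desmosomes. Of 17 tested disc partner genes, 1 was called, 5.88% beside 6.4% of all tested rows, and their median log2 change was -0.08. Ctnna1, which encodes the adherens junction linker alpha-catenin, fell by 0.19 on the log2 scale (limma adjusted p = 0.0434), with 273 ± 3.77 TPM in control and 239 ± 13.3 TPM in cKO (SD, n = 4), a call lost under 14 of 19 alternatives. Ctnnb1, which encodes beta-catenin, stood at 503 ± 8.49 TPM in control and 495 ± 11.2 TPM in cKO. Tjp1, the gene of the scaffold that borders Cx43 plaques, differed by -0.05 on the log2 scale (adjusted p = 0.574 in limma).

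Of the 4 potassium channel genes Kcnj2, Kcnj3, Kcnq1 and Kcnh2, only Kcnh2 was called. It encodes the pore subunit of the rapid delayed rectifier that ends the action potential. Kcnh2 (chr5:24319589-24351684, minus strand) was at 87.2, 90.2, 83.7 and 93.2 TPM in control libraries 1 to 4 and at 60.5, 68.2, 69.0 and 70.7 TPM in cKO libraries 1 to 4. All cKO libraries lay below all control libraries, with a gap of 12.98 TPM between the groups, and cKO library 1 was the lowest. The log2 change was -0.40 (SE 0.0587, 95% interval -0.53 to -0.27, limma adjusted p = 0.00667). The call was kept under all 19 alternatives tried, where the change ranged from -0.42 to -0.34.

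Kcnq1 encodes the pore subunit of the slow delayed rectifier. Kcnq1 (chr7:143106877-143427050, plus strand) was at 10.53, 11.9, 11.7 and 11.5 TPM in control libraries 1 to 4 and at 8.89, 10.47, 8.70 and 10.1 TPM in cKO libraries 1 to 4. The groups did not overlap, but only 0.0600 TPM lay between the lowest control library and the highest cKO library. The log2 change was -0.24 (95% interval -0.41 to -0.07), and it did not pass (limma adjusted p = 0.0890, and between 0.0740 and 0.212 over the alternatives). Kcnq1ot1, the imprinted antisense transcript inside the gene, stood at 2.41 ± 0.231 TPM in control and 2.83 ± 0.347 TPM in cKO (SD, n = 4, limma adjusted p = 0.357). Since the use of strand in counting is not given in the sources used here, reads of the overlapping pair may not be fully separated.

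Kcnj2 encodes the main channel of the inward rectifier current that holds the resting potential of ventricular cells. It was the 1 gene of the 9 with a higher mean in cKO. Kcnj2 (chr11:111066164-111076825, plus strand) stood at 4.51, 4.70, 4.48 and 5.85 TPM in control libraries 1 to 4 and at 5.80, 5.82, 6.16 and 5.29 TPM in cKO libraries 1 to 4. Only control library 4 reached into the cKO range. The log2 change was 0.21 (95% interval 0.00 to 0.41), with an unadjusted p of 0.0467 in limma and an adjusted p of 0.203.

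Kcnj3 encodes a subunit of the acetylcholine-gated channel, a feature of atrial and nodal cells. Kcnj3 (chr2:55411798-55598145, plus strand) was at 7.01, 4.18, 3.88 and 7.54 TPM in control libraries 1 to 4 and at 2.85, 7.68, 3.89 and 7.87 TPM in cKO libraries 1 to 4. Each group held 2 libraries near 7 to 8 TPM and 2 at 4.18 TPM or less, so the spread within a group exceeded the difference between them. The log2 change of -0.06 had a 95% interval of -0.71 to 0.58 (limma adjusted p = 0.922), and its sign turned with array weights (0.03) and without cKO library 1 (0.16) or 3 (0.05) or control library 1 (0.04) or 4 (0.07). Its partner subunit Kcnj5 was steadier, at 51.1 ± 2.10 TPM in control and 52.4 ± 2.24 TPM in cKO (SD, n = 4).

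**Figure D3:**
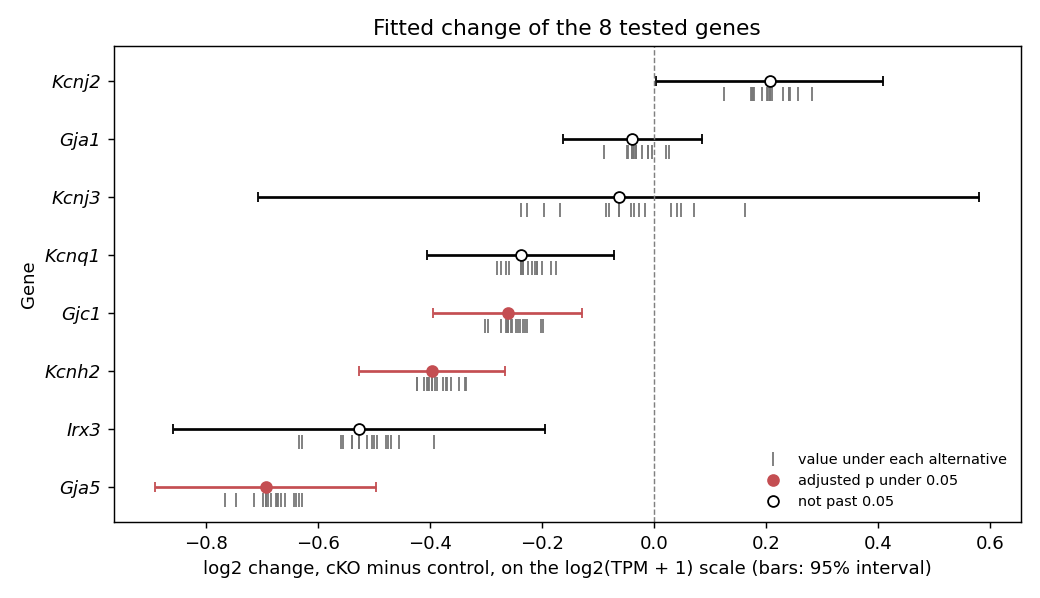
Fitted log2 change (cKO minus control) of the 8 tested genes with 95% intervals, filled red where the limma adjusted p was under 0.05. Grey ticks give the value under each alternative, which stay below 0 for Gja5, Irx3, Kcnh2, Gjc1 and Kcnq1 and fall on both sides of 0 for Gja1 and Kcnj3.

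Of 22 further cardiac potassium channel subunit genes that were tested, 3 were called, 1 lower and 2 higher, which is 13.6% beside 6.4% of all tested rows. Kcne5 (listed as Kcne1l), an accessory subunit known to restrain the slow delayed rectifier, rose by 0.44 on the log2 scale (limma adjusted p = 0.0297), with 33.8 ± 5.62 TPM in control and 45.8 ± 1.504 TPM in cKO (SD, n = 4). Kcnj4, another inward rectifier gene, rose from 1.53 ± 0.430 to 3.32 ± 0.876 TPM (SD, n = 4, limma adjusted p = 0.0305). Kcnab2, a regulatory beta subunit gene, fell from 4.00 ± 0.426 to 2.12 ± 0.750 TPM (SD, n = 4, limma adjusted p = 0.0401). These 3 calls were lost under 8 of 19, 8 of 18 and 11 of 18 alternatives. Kcne1, the usual partner of Kcnq1, stood at 30.6 ± 4.96 TPM in control and 34.1 ± 2.45 TPM in cKO (limma adjusted p = 0.388). Of the 4 tested sodium channel subunit genes in the list, limma called 0, and 0 had an unadjusted p under 0.05.

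Irx3 (chr8:91798511-91801654, minus strand) stood at 50.9, 51.9, 48.0 and 46.5 TPM in control libraries 1 to 4 and at 25.4, 29.0, 42.6 and 42.0 TPM in cKO libraries 1 to 4. The groups did not overlap, but cKO libraries 1 and 2 were far lower than cKO libraries 3 and 4, and the highest of them, library 3, lay 3.98 TPM below the lowest control library. Group means were 49.35 ± 2.50 TPM in control and 34.7 ± 8.84 TPM in cKO (SD, n = 4). The log2 change of -0.53 was the second largest of the 8 tested genes (SE 0.149, 95% interval -0.86 to -0.20), yet with that spread it did not pass (limma adjusted p = 0.0657). It passed without cKO library 4 (-0.63, adjusted p = 0.0387) and with array weights (-0.56, adjusted p = 0.0440).

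The other Iroquois genes and Nkx2-5 were then viewed library by library, a comparison chosen after the values of Irx3 had been seen. Irx5, the neighbour of Irx3 in its gene cluster, stood at 73.8% and 66.5% of its control mean in cKO libraries 1 and 2 and at 106% and 113% in cKO libraries 3 and 4. Irx2 was at 58.7% and 76.0% in cKO libraries 1 and 2 and at 107% and 99.96% in the other two. Nkx2-5, the gene of a homeodomain factor needed for conduction development, was at 60.1% and 62.5% in cKO libraries 1 and 2 and at 79.5% and 87.8% in cKO libraries 3 and 4. Irx4, the ventricular Iroquois gene, was even across the group, between 75.2% and 80.2% in all 4 cKO libraries. Gja5 did not follow the division seen for Irx3, with 55.1% in cKO library 4 and 71.5% in cKO library 3. Irx6 did not either, at 99.96% and 99.3% in cKO libraries 1 and 2 and 92.2% and 93.1% in 3 and 4. Its control libraries ranged from 73.9% to 130%, a wider spread than that between the cKO libraries. No label separates cKO libraries 1 and 2 from 3 and 4.

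**Figure D4:**
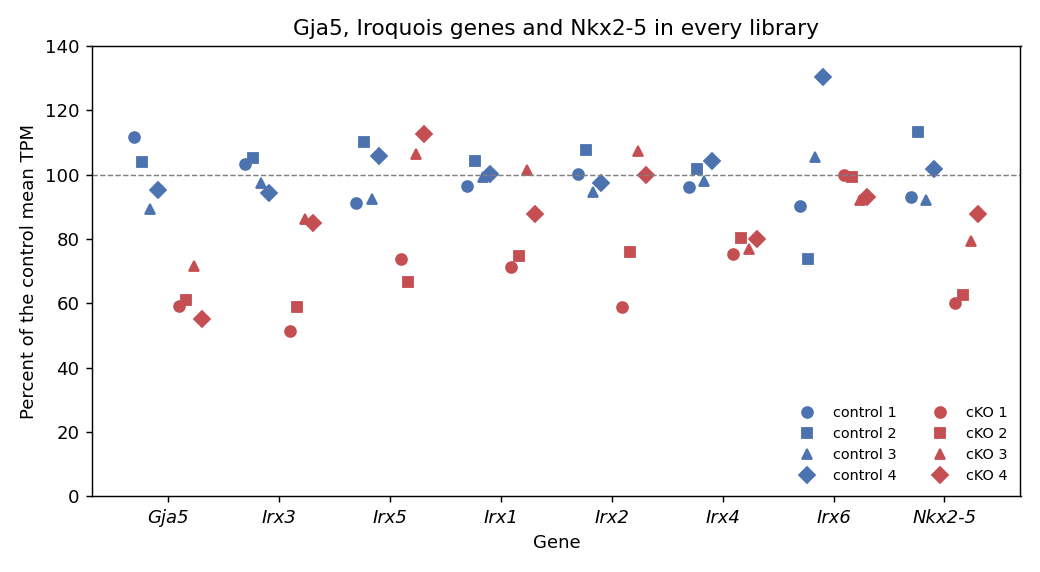
TPM as a percent of each gene's control mean in every library (blue control, red cKO, 1 marker shape per library number). The circle and square of cKO libraries 1 and 2 lie lowest for Irx3, Irx5, Irx1, Irx2 and Nkx2-5, whereas the 4 red Irx4 points sit together between 75.2% and 80.2% and the red Irx6 points between 92.2% and 99.96%.

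Of 20 further transcription factor genes of conduction development, all were tested and 3 were called, all lower, which is 15.0% beside 6.4% of all tested rows. Irx4 fell by 0.35 on the log2 scale (limma adjusted p = 0.00308), with 94.5 ± 3.48 TPM in control and 73.8 ± 2.31 TPM in cKO (SD, n = 4), and was called under all 19 alternatives. Nkx2-5 fell by 0.48 on the log2 scale (limma adjusted p = 0.0453), with 282 ± 27.7 TPM in control and 205 ± 37.7 TPM in cKO (SD, n = 4). Tbx5, the gene of a T-box factor known to activate Gja5, fell by 0.24 on the log2 scale (limma adjusted p = 0.0386), with 40.2 ± 2.70 TPM in control and 33.8 ± 1.38 TPM in cKO (SD, n = 4). The Nkx2-5 and Tbx5 calls were each lost under 14 of 19 alternatives. Gata4, whose product acts with both factors, differed by 0.02 on the log2 scale (adjusted p = 0.848 in limma).

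Cntn2 (chr1:132509425-132543251, minus strand) encodes contactin-2, a cell adhesion protein that marks the mature His-Purkinje network. It was at 0.05, 0.0253, 0.0732 and 0.352 TPM in control libraries 1 to 4 and at 0.0169, 0.0455, 0.0345 and 0.116 TPM in cKO libraries 1 to 4. Library 4 was the highest of each group, the groups overlapped (exact permutation p = 0.543), and at these levels no difference could be measured. Among 13 tested genes of the list of other ventricular conduction network markers, 2 were called, both lower, which is 15.4% beside 4.23% of all tested rows called lower, and the median log2 change was 0.06. Hcn4, the pacemaker channel gene, was at 27.99 ± 1.97 TPM in control and 15.9 ± 2.36 TPM in cKO (SD, n = 4, limma adjusted p = 0.00279), called under all 19 alternatives. Cpne5, a marker of the conduction network, fell from 9.76 ± 0.674 to 6.90 ± 0.932 TPM (SD, n = 4, limma adjusted p = 0.0237), a call lost under 7 of 19 alternatives.

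Over the lists of further connexins, disc partners, channel subunits, factors and network markers together, 78 genes were tested and 11 were called, 8 lower and 3 higher, or 14.1% beside 6.4% of all tested rows. These lists and their members were compiled with earlier results of these data known. The count was 2, 6, 2 and 3 without control libraries 1 to 4, beside 390, 451, 421 and 588 calls over all tested rows. Without cKO libraries 1 to 4 it was 3, 7, 6 and 8, beside 400, 707, 419 and 938. With control library 1, 3 or 4 left out, the share called was close to that of all tested rows. Gja5, Kcnh2, Irx4 and Hcn4 kept their calls whichever of the 8 libraries was omitted.

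Markers of cell types that could carry these transcripts were read beside the results. The summed TPM of 11 working cardiomyocyte markers was 34477 to 38285 in control and 33876 to 36002 in cKO, with 0 members called by limma and 2 at an unadjusted p under 0.05. Set against that sum, Gja5 was at 64.2% of its control level, Irx3 at 73.4%, Kcnh2 at 78.9% and Kcnq1 at 87.1%, all without overlap of the groups. In limma on this scale, Gja5 and Kcnh2 were called (adjusted p = 0.00741 and 0.0266). Irx3 and Kcnq1 were not called on it (limma adjusted p = 0.121 and 0.212). The share of all tested rows separated on this scale was not computed. On the TPM scale, 10.3% of all tested rows were separated in that direction. Gjc1 was at 86.6% on this scale and its groups overlapped (exact permutation p = 0.0571). Gja1 was at 102%.

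Trabecular muscle is a known site of Gja5 and Irx3. The 5 trabecular markers summed to 4807 to 5738 TPM in control and 6198 to 8924 TPM in cKO, higher in every cKO library, with cKO library 3 the highest. Most of that sum was Nppa, which did not pass the test. Nppb, a natriuretic peptide gene, rose from 366 ± 45.4 to 537 ± 110 TPM (SD, n = 4, limma adjusted p = 0.0410), 1 of the 5 called. Nppa stood at 4276 ± 377 TPM in control and 5844 ± 1139 TPM in cKO (limma adjusted p = 0.0768). The groups overlapped for the other 3 genes: Smpx averaged 613 TPM in control and 629 TPM in cKO, Bmp10 averaged 129.7 and 137 TPM, and Mybphl averaged 38.8 and 45.2 TPM. The ventricular markers, which include the lower Irx4, summed to 13032 to 14598 TPM in control and 13170 to 13510 TPM in cKO. The compact muscle markers summed to 299 to 319 TPM in control and 298 to 325 TPM in cKO, with 0 called. Both sums overlapped between groups. The 6 arterial endothelial markers, which include Gja4, summed to 118 to 123 TPM in control and 129.6 to 140.5 TPM in cKO, with 1 of 6 called, Gja4 itself. The 8 atrial markers overlapped between groups, at 8408 to 9121 TPM in control and 7956 to 9369 TPM in cKO, with 1 of 7 tested called, the lower Angpt1 (51.0 and 38.4 TPM). Among the atrial markers, Sln was the scarcest, at 0 to 2.49 TPM, while Myl4 averaged 5056 TPM in control and 5208 TPM in cKO and Myl7 averaged 3281 and 3071 TPM. The 6 pacemaker and sinus venosus markers summed to 38.1 to 48.8 TPM in control and 29.1 to 38.2 TPM in cKO, overlapping between groups, with 1 of 3 tested called, the lower Hcn4. Beside the counts of these lists, 4.23% of all tested rows were called lower and 2.16% higher. A single call in so short a list cannot be read as a result about the list.

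The 8 epicardial markers, a tissue that also carries Gja1, summed to 390.3 to 451 TPM in control and 458 to 560.4 TPM in cKO, with 5 of 8 called higher, beside 2.16% of all tested rows. The 9 mesenchymal markers summed to 585 to 762 TPM in control and 871 to 1060.1 TPM in cKO, with 4 of 9 called higher, beside the same 2.16%. The 10 endocardial and endothelial markers overlapped between groups, at 1053 to 1117 TPM in control and 1078 to 1224 TPM in cKO, with 0 called by limma and 4 at an unadjusted p under 0.05. Mitochondrial transcripts made up 11.4% to 12.2% of control TPM and 13.2% to 16.2% of cKO TPM. After rescaling without mitochondrial and globin rows, the log2 changes of Gja5 and Kcnh2 were -0.66 and -0.36 and both remained called. The part of these cell types in the connexin and channel values was not tested.

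Finally, the tested genes whose profile over the 8 libraries was most like that of each called gene were found. Likeness was the root mean square difference of centred log2(TPM + 1) values. Predicted genes with Gm, Rik or ps symbols and rows off the primary chromosomes were left out. The difference between groups is part of each profile, so genes lower in cKO are matched with genes lower in cKO. For Gja5 the most alike were Tmtc1 (0.0847), Mreg (0.131) and Usp51 (0.134). Tmtc1 stood at 6.65 TPM in control and 3.95 TPM in cKO, with a log2 change of -0.63. For Kcnh2 they were Rbm24 (0.0415), Dhx32 (0.0495) and Ankle1 (0.0516), of which Rbm24, the gene of a splicing factor of heart muscle, stood at 157 TPM in control and 125 TPM in cKO. For Gjc1 they were Gsk3a (0.0301), Gnaz (0.0334) and Eno1b (0.0337).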

How the data were processed

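Expression was measured by RNA sequencing of 8 libraries, 4 cKO and 4 control, each a column of 1 table. The deposited values are TPM, which the authors scaled so that each column sums to 1000000. Per the submitters' processing notes the build was GRCm38 and the tools named were FastQC, Trim Galore 0.6.7, HISAT2 2.2.1, StringTie 2.2.1, featureCounts and DESeq2, with no role or order. Annotation, filters and the use of strand are not given in the sources used here. The labels name both ribosomal RNA depletion and a poly(A) kit, so the library type is not settled. TPM keeps no depth, so no counting error or floor could be given.

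Groups and replicate numbers came from the sample titles. Coordinates of all 9 genes matched the RefSeq table of GRCm38.p6. A pseudocount of 1 TPM was added before the log2 transform, and limma 3.58.1 under R 4.3.3 (lmFit, then eBayes with a trend, two-sided) was fitted over the 15541 rows with a mean of at least 1 TPM, and p-values were adjusted over all of them by the Benjamini-Hochberg method. Any other limma p printed beside n = 4 is of this kind. Single values were compared by an exact two-sided permutation test over 70 assignments, whose smallest p is 0.0286. Replicates are called biological in the series text.

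Named were the 9 genes, Rps19bp1, up to 4 called members of each pathway list by smallest p (else its most abundant member), marker list sums with abundant members, rows overlapping a member, and the 3 most similar profiles of each called member. Tjp1, Ctnnb1, Gata4, Kcne1, Kcnj5, Kcnk3, Irx1, Irx2, Irx5, Irx6, Sln, Angpt1, Smpx, Bmp10 and Mybphl were added after their values were seen. Some genes of the lists are not reported here. The members and lists were chosen with earlier results of these data known. Alternatives were a pseudocount of 0.1 or 5, no filter, a mean of at least 5 TPM, quantile normalization, scaling by median ratios, removal of mitochondrial and globin rows before rescaling, eBayes without a trend, array weights, a replicate block and leaving out each library. Scaling to the cardiomyocyte markers was added after seeing the data. Figures were drawn with matplotlib 3.10.9.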

Additional observations from a re-analysis of the deposited data

Results flagged for a closer look

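Among 32 groups of 4 values examined (the 9 genes and 7 sums, shares and ratios), 2 held a library far from the other 3, where chance alone marks about 1 group in 20. Both were control library 4. Its Kcnj2 value was 5.85 TPM, while the other control libraries lay between 4.48 and 4.70 TPM. Its Cntn2 value was 0.352 TPM, while the others lay between 0.0253 and 0.0732 TPM. The same library had the largest summed level of the 8 erythroid markers, 7174 TPM beside 1974 to 3272 TPM in the other controls. Without it the Kcnj2 log2 change was 0.28 (limma adjusted p = 0.0862). The part of that library's composition in the Kcnj2 value was not tested.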

How the results depend on the processing

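The calls of Gja5 (log2 change -0.77 to -0.63) and Kcnh2 (-0.42 to -0.34), and the absence of a call for Gja1, Kcnj2, Kcnj3 and Kcnq1, held under all 19 alternatives. Gjc1 lost its call with no filter, without a trend and with the replicate block (-0.26 in each), after quantile normalization (-0.20), rescaling without mitochondrial and globin rows (-0.23) and scaling to cardiomyocyte markers (-0.20), and ranged from -0.30 to -0.23 over omitted libraries. Irx3 passed with array weights (-0.56) and ranged from -0.63 to -0.39 over omitted libraries. Signs that turned belonged to values not past the test: Gja1 after quantile normalization (0.027) and scaling to cardiomyocyte markers (0.021), Kcnj3 with array weights (0.030) and over omitted libraries (-0.24 to 0.16), and the Gjc1 share over omitted libraries (-0.86 to 0.40 percentage points). The number of members called stayed between 2 and 4.

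All calls numbered 347 with no filter, where many more rows were tested, 609 without a trend, 420 with the replicate block, 400 with cardiomyocyte scaling, and 390 to 938 over omitted libraries. The calls numbered 390, 451, 421 and 588 without control libraries 1 to 4 and 400 and 419 without cKO libraries 1 and 3. Other conduction genes called numbered 2, 5, 4 and 5 under those 4 settings and 2 to 8 over omitted libraries. For the connexin shares, sign flips within replicate numbers gave the same differences (8.24 and -7.97 percentage points for Gja1 and Gja5) with an exact p of 0.125, the smallest that 4 differences allow. Whether the replicate numbers pair the libraries could not be settled from so few values. Deviations of same-numbered libraries correlated at -0.0891 to 0.0674, and 2 of 4 cKO libraries correlated best with their own number. Apart from these, causes were not tested. Levels near 0, as for Cntn2, cannot be resolved without depth.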

Other observations

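Some values belong to no comparison above. Gm15589, a predicted transcript on the strand opposite Kcnh2, was listed at 0 in 3 of 4 control libraries and at 0.161 TPM in control library 2, and stood at 0.357 to 0.455 TPM in the 4 cKO libraries. It was below the filter and was not in the limma fit. 4933417O13Rik, opposite Kcnq1, stood at 1.32 ± 0.398 TPM in control and 1.96 ± 0.299 TPM in cKO (SD, n = 4, limma adjusted p = 0.160).

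Kcnk3, the gene of an acid-sensitive background potassium channel, was at 60.6 to 79.0 TPM in control libraries and at 36.9, 54.3, 65.3 and 63.9 TPM in cKO libraries 1 to 4 (limma adjusted p = 0.184). Its lowest cKO library was 1, as for Irx3, Kcnh2, Kcnj3, Cntn2 and Nkx2-5. The lowest cKO library was 4 for Gja1, Gja5 and Kcnj2, and 3 for Gjc1 and Kcnq1.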
